A study of Mus musculus with 18 samples.

Results

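Progesterone acts in ovulating follicles through a nuclear receptor that belongs to a family of hormone-binding transcription factors, and many of the genes and helper proteins of that family are shared with the glucocorticoid receptor. The 9 genes described here were taken by name from 24963 genes with a summed value: the steroid receptors Nr3c1, Nr3c2, Esr1 and Esr2, the receptor co-chaperones Fkbp4 and Fkbp5, the glucocorticoid-converting enzyme Hsd11b1, and the receptor targets Tsc22d3 and Sgk1. The TPM of their transcripts was summed to 1 value per gene and library.

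RNA was sequenced from granulosa cells, the hormone-producing somatic cells inside the ovarian follicle, of 3 mouse strains that lack progesterone receptor (PGR) isoforms. PRKO KO mice lacked both isoforms (allele Pgr tm1Bwo), PRAKO KO mice lacked PGR-A (Pgr tm1Omc) and PRBKO KO mice lacked PGR-B (Pgr tm2Omc), each set beside WT mice of its own strain. The alleles are carried by every cell of the mouse and not by granulosa cells alone. All mice were 21 to 27 days old, were given 5 IU of equine chorionic gonadotropin (eCG) to grow follicles and, 46 h later, 5 IU of human chorionic gonadotropin (hCG) to start ovulation, and were sampled 8 h after hCG. The interval of 46 h is that of the sample records, and the study's general methods give a slightly shorter one. Cells were released by puncturing follicles. Each of the 6 groups had 3 libraries, 18 in total, and a library held the pooled cells of 3 mice, so the spread between libraries is a spread between pools. The study's methods state more biological replicates per genotype than the 3 libraries per group used here.

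In the absence of ligand, steroid receptors sit in the cytoplasm in a complex with heat shock protein 90 and immunophilin co-chaperones. FKBP5 holds the glucocorticoid receptor in a state of low hormone affinity and FKBP4 favours its transport and activity, and FKBP4 is also a partner of PGR in the reproductive tract. Bound to hormone, the progesterone, glucocorticoid and mineralocorticoid receptors recognise the same palindromic DNA element, so a gene known as a glucocorticoid target can also answer to PGR. In the follicle the ovulatory surge changes the enzymes that convert glucocorticoid between its inactive and active forms, and the granulosa cell meets both progesterone and glucocorticoid.

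Values were in TPM, a length-scaled transcript abundance with a fixed sum per library that keeps no read depth, so the depth behind each value is unknown. A gene was tested in a strain when at least 3 of the 6 libraries reached 1 TPM. Fold changes are KO over WT after log2 of TPM + 0.5, where the added value shrinks those of low genes, with their standard error (SE) and an adjusted p from limma over all genes tested. A gene was called when its adjusted p did not exceed 0.01 and its log2 fold change was 1 or more in size, in either direction. The 12 granulosa markers checked reached 1 TPM in each group. Protein-coding genes held 50.9% to 61.2% of TPM in the PRBKO KO libraries, against 42.7% to 47.4% in PRBKO WT. They held 44.7% to 47.8% in PRAKO KO against 37.7% to 40.7% in PRAKO WT, again with no overlap. In PRKO KO they held 37.3% to 39.1%, against 39.3% to 44.5% in PRKO WT. The median gene had a log2 fold change of -0.10 in PRKO, 0.22 in PRAKO and 0.22 in PRBKO. For the genes of the set tested, each fold change within a strain is therefore also given relative to that median, and fewer cells of a type and less RNA per cell cannot be told apart in such bulk samples. Pgr, the targeted gene, was not lower in KO libraries, with 1.49 to 2.67 TPM in PRKO KO against 1.73 to 2.09 TPM in PRKO WT, 8.36 to 12.4 TPM in PRAKO KO against 0.829 to 1.10 TPM in PRAKO WT, and 2.62 to 4.88 TPM in PRBKO KO against 1.41 to 6.24 TPM in PRBKO WT. It is listed as 1 transcript for both isoforms, so its total does not check which isoform was lost, and in PRKO it did not separate KO from WT, so the genotype labels rest on the study's account.

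The shared element is a pair of half-sites of the letters AGAACA in opposite directions with 3 bases between them, written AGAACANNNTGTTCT. It was searched on both strands in RefSeq promoter windows of build GRCm38.p6, each with 250 bases before and 50 bases after a transcript start. The full element was in 3 of 32851 windows, or 0.00913% of them. One of those was a window of Sgk1 on the plus strand, chr10:21993640-21993939. The half-site alone was in 19.0% of all windows. Windows of 8 of the 9 genes were searched, 16 in number, and half-sites were in 4 of them, 3 of Sgk1 and 1 of Tsc22d3. A window of each is shown because Tsc22d3 was called between KO and WT and Sgk1 came nearest to a call, with half-sites in capitals. The window was picked by its letters, for Sgk1 the one with the full element and for Tsc22d3 the only one with a half-site. The Tsc22d3 window is on the minus strand, chrX:140600473-140600772, the most upstream of the 3 windows of the gene that were searched.
Sgk1: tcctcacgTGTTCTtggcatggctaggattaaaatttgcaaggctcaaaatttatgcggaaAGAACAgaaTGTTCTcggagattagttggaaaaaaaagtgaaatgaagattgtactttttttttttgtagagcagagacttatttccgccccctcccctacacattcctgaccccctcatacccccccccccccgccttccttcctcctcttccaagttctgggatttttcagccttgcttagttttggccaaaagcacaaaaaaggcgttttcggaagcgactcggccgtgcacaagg
Tsc22d3: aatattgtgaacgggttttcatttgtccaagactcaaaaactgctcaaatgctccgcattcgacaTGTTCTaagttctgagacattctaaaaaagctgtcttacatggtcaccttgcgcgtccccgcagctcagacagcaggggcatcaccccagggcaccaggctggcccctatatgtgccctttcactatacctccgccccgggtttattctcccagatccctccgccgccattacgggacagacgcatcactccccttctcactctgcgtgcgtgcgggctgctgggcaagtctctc
In the Sgk1 window the full element lay at chr10:21993701-21993715, 175 bases before the start of transcript NM_001161850 and 951 bases before that of NM_011361, the main Sgk1 transcript. A window at the start of the main Tsc22d3 transcript, NM_010286, was not searched. A match describes the letters only and does not show that a receptor is bound there.

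Tsc22d3, which encodes the glucocorticoid-induced leucine zipper protein and is a standard readout of ligand-bound receptor, was the one gene of the set called between KO and WT, and it was lower in PRKO and PRAKO. It lies on chromosome X, 140539528 to 140600522. PRKO KO libraries had 21.8, 12.6 and 12.5 TPM, against 63.3, 68.4 and 79.6 TPM in PRKO WT. The log2 fold change was -2.18 ± 0.22 (SE, n = 3 each; limma adjusted p = 0.00124) and -2.08 relative to the median gene. Every PRKO KO library was far below every PRKO WT library, with the first KO library highest of its group. Of all genes tested in PRKO, 1.82% were called lower and 0.316% higher in KO.

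PRAKO KO libraries had 52.5, 43.8 and 49.2 TPM of Tsc22d3, against 110, 104 and 104 TPM in PRAKO WT. The log2 fold change was -1.12 ± 0.08 (SE, n = 3 each; limma adjusted p = 9.03e-05) and -1.34 relative to the median gene, where 1.21% of genes tested were called lower and 0.841% higher. Of the genes called there 58.9% were lower, against 77.7% with size factors and 76.7% with TPM rescaled to protein-coding genes. The groups did not overlap and the 3 libraries of each lay close together. In PRBKO the KO libraries had 131, 139 and 136 TPM, against 116, 117 and 130 TPM in PRBKO WT. That log2 fold change was 0.16 ± 0.10 (SE, n = 3 each; limma adjusted p = 0.262), or -0.06 relative to the median gene, with a 95% interval of -0.05 to 0.38. Its sign turned with the scaling, to -0.07 with median-of-ratios size factors and -0.15 with TPM rescaled to protein-coding genes. In PRBKO 0.0419% of genes tested were called lower and 0.0907% higher, so 31.6% of the 19 called were lower, and under these 2 rescalings 3 and 7 genes were called, 66.7% and 57.1% of them lower.

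**Figure D1:**
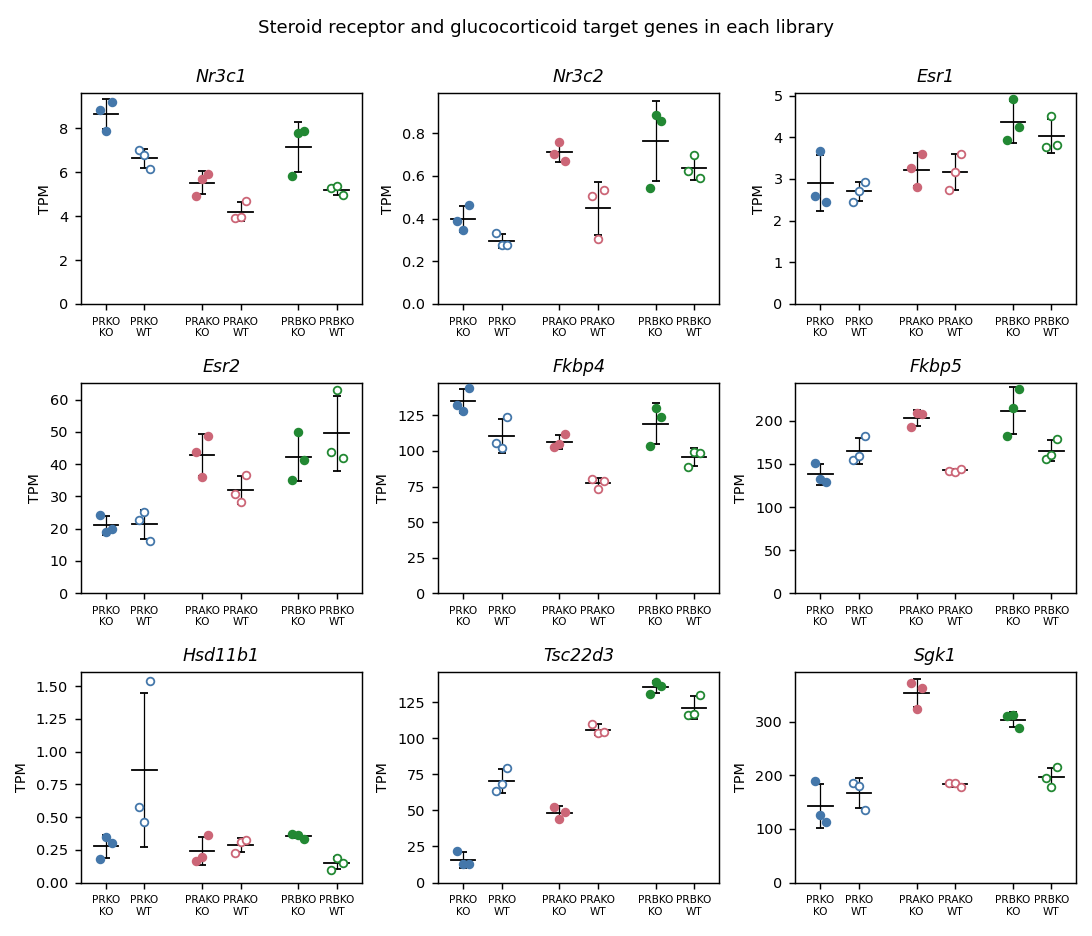
TPM of the 9 genes in each library (vertical axes, each from 0), with KO (filled) left of WT (open) in PRKO, PRAKO and PRBKO. Points are libraries, bars are the mean of 3 with its SD, and Tsc22d3 is lowest in PRKO KO at 12.5 to 21.8 TPM while Sgk1 is highest in PRAKO KO at 324 to 373 TPM.

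The drop of Tsc22d3 was in its main transcript. NM_010286 held 82.3% to 94.8% of the gene's TPM in every library, and averaged 13.2 ± 4.87 TPM in PRKO KO against 64.5 ± 7.53 TPM in PRKO WT, and 44.1 ± 3.68 TPM in PRAKO KO against 98.3 ± 3.76 TPM in PRAKO WT (SD, n = 3 each). The long transcript from the far upstream start, NM_001077364, had 1.02 to 1.54 TPM in PRKO KO libraries, against 4.07 to 5.33 TPM in PRKO WT. It had 2.07 to 3.27 TPM in PRAKO KO, against 5.04 to 6.17 TPM in PRAKO WT. Both transcripts were lower in each KO library than in each WT library of these strains. The non-coding NR_122039 had 0.706 to 1.38 TPM in PRKO KO against 1.34 to 1.64 TPM in PRKO WT, and these ranges overlapped.

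The KO effects on Tsc22d3 in PRKO and in PRAKO each differed from that in PRBKO. The effect in PRKO minus that in PRBKO was -2.34 ± 0.22 (SE; limma contrast over 18 libraries, adjusted p = 2.55e-06), where 3.75% of genes tested were called in either direction. The effect in PRAKO minus that in PRBKO was -1.29 ± 0.22 (SE; limma contrast, adjusted p = 0.00146), where 2.01% of genes were called. The effect in PRKO minus that in PRAKO was -1.06 ± 0.22 (SE; limma contrast, adjusted p = 0.0118), which missed the limit of 0.01. It passed without replicate 1 of PRKO KO (-1.31, adjusted p = 8.86e-05) or without replicate 1 of PRBKO KO (-1.06, adjusted p = 0.0084), and was -0.93 at its smallest, without replicate 3 of PRKO KO (adjusted p = 0.0343). With size factors and with protein-coding TPM it was -0.73 and -0.76 (limma adjusted p = 0.0917 and 0.0907). Over all genes tested the median contrast was -0.30 for PRKO minus PRAKO and -0.31 for PRKO minus PRBKO. The 3 contrasts share libraries and are not independent of each other.

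Tsc22d3 also varied among WT libraries, with 70.4 ± 8.33 TPM in PRKO WT, 106 ± 3.65 TPM in PRAKO WT and 121 ± 7.99 TPM in PRBKO WT (SD, n = 3 each). The 3 strains came in separate tables, so these WT levels are given side by side with no test. Markers of macrophages and leukocytes, cells in which this gene is abundant, summed to 22.9 to 43.1 TPM over 8 genes in PRKO KO against 28.0 to 30.3 TPM in PRKO WT. They summed to 20.2 to 22.4 TPM in PRAKO KO against 23.4 to 23.6 TPM in PRAKO WT, and none of the 6 of these markers tested was called by limma in any strain (0 in PRKO, 1 in PRAKO and 1 in PRBKO at an unadjusted p under 0.05). Markers of blood endothelium summed to 55.1 to 72.2 TPM in PRKO KO against 73.6 to 79.3 TPM in PRKO WT, and to 22.6 to 28.6 TPM in PRAKO KO against 44.7 to 50.3 TPM in PRAKO WT. Most of that lay in 1 gene, the endothelial cadherin Cdh5, with 15.7 ± 2.25 TPM in PRKO KO against 27.5 ± 2.33 TPM in PRKO WT and 9.33 ± 1.05 TPM in PRAKO KO against 28.0 ± 2.22 TPM in PRAKO WT (SD, n = 3 each). Kdr, a receptor of endothelial growth factor, went the other way in PRKO, with 18.7 ± 3.15 TPM in PRKO KO against 12.5 ± 0.336 TPM in PRKO WT. Theca markers summed to 26.9 to 33.5 TPM in PRAKO KO against 33.9 to 36.9 TPM in PRAKO WT. Of these, Hhip averaged 3.47 ± 0.258 TPM in PRAKO KO against 8.64 ± 0.0673 TPM in PRAKO WT (SD, n = 3 each). Cyp17a1, Insl3 and Tcf21 were also lower in PRAKO KO. Ptch1 and Gli1 went the other way, with means of 15.9 and 1.59 TPM in PRAKO KO against 12.3 and 0.954 TPM in PRAKO WT. The part of these cells in the Tsc22d3 difference was not tested.

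Over the 18 libraries, each set to the WT mean of its strain on the log2 scale, the genes most like Tsc22d3 were Crispld2 (Pearson r = 0.994), Stxbp6 (r = 0.991), Appl2 (r = 0.988), Dtnb (r = 0.984) and Vps26a (r = 0.984), out of 9303 protein-coding genes with a mean of at least 5 TPM. Crispld2, a secreted protein that is itself a glucocorticoid target, had log2 fold changes of -1.59 in PRKO, -0.85 in PRAKO and 0.15 in PRBKO. Stxbp6, a syntaxin-binding protein, had -1.87, -0.91 and 0.26 in the same order of strains. Appl2, an endosomal adaptor, had -1.54, -0.72 and 0.10. These correlations describe points that share libraries and groups.

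Sgk1, the serum- and glucocorticoid-regulated kinase that acts on ion transport and cell survival, was not called in any strain, and its values in PRAKO lay on the other side of WT from those of Tsc22d3. It lies on chromosome 10, 21882184 to 21999903. PRAKO KO libraries had 373, 324 and 364 TPM, against 187, 185 and 178 TPM in PRAKO WT. The log2 fold change was 0.94 ± 0.07 (SE, n = 3 each; limma adjusted p = 0.000121), or 0.73 relative to the median gene, which passed the p limit and missed the fold limit. Without replicate 3 of PRAKO KO, the library with 324 TPM, it was 1.01 and called (adjusted p = 0.000241). All 3 KO libraries were well above all 3 WT libraries, and 45% of all genes tested in PRAKO had KO above WT.

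In PRBKO the KO libraries had 312, 312 and 289 TPM of Sgk1, against 194, 179 and 215 TPM in PRBKO WT. KO was above WT without overlap, as for 33.5% of all genes tested in PRBKO. The log2 fold change was 0.63 ± 0.10 (SE, n = 3 each; limma adjusted p = 0.0197), or 0.42 relative to the median gene. It was 0.32 (limma adjusted p = 0.145) after TPM was rescaled to protein-coding genes, the setting that takes out the higher protein-coding share of PRBKO KO. PRKO KO libraries had 189, 127 and 113 TPM, against 186, 179 and 135 TPM in PRKO WT. There the groups overlapped and the log2 fold change was -0.24 ± 0.21 (SE, n = 3 each; limma adjusted p = 0.542), or -0.15 relative to the median gene, with a 95% interval of -0.75 to 0.26.

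The KO effect on Sgk1 in PRKO minus that in PRAKO was -1.19 ± 0.22 (SE; limma contrast, adjusted p = 0.00695), the one gene of the set called in a contrast where 0.51% of genes were. It was not called after either rescaling, with -0.85 for median-of-ratios size factors (limma adjusted p = 0.077) and -0.87 for protein-coding genes (adjusted p = 0.115). Leaving out 1 library ended the call for 10 of the 18, which were each PRAKO library, replicates 2 and 3 of PRKO KO and replicates 1 and 2 of PRKO WT, with adjusted p from 0.0114 to 0.0263 and values of -1.25 to -1.04. The effect in PRKO minus that in PRBKO was -0.88 ± 0.22 (SE; limma contrast, adjusted p = 0.0094), short of the fold limit. It was -1.10 without replicate 1 of PRKO KO (adjusted p = 0.000274) and -1.02 without replicate 3 of PRKO WT (adjusted p = 0.00376), both called, and -0.73 at its smallest, without replicate 3 of PRKO KO (adjusted p = 0.0257). With size factors and with protein-coding TPM it was -0.54 and -0.46 (limma adjusted p = 0.158 and 0.297). The effect in PRAKO minus that in PRBKO was 0.31 with a 95% interval of -0.16 to 0.78.

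The transcripts of Sgk1 kept nearly the same proportions. NM_011361 held 86.7% to 90.7% of the gene's TPM in every library, with 319 ± 24.3 TPM in PRAKO KO against 164 ± 4.48 TPM in PRAKO WT and 270 ± 15.3 TPM in PRBKO KO against 172 ± 16.2 TPM in PRBKO WT (SD, n = 3 each). NM_001161849, from an upstream start, had 24.4 to 28.2 TPM in PRAKO KO against 13.9 to 15.3 TPM in PRAKO WT. NM_001161850, whose window holds the full element shown above, had 5.99 to 7.76 TPM in PRAKO KO against 4.15 to 4.23 TPM in PRAKO WT, and 2.55 to 4.21 TPM in PRKO KO against 3.98 to 4.62 TPM in PRKO WT. It was a minor form, at 1.65% to 3.26% of the gene.

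**Figure D2:**
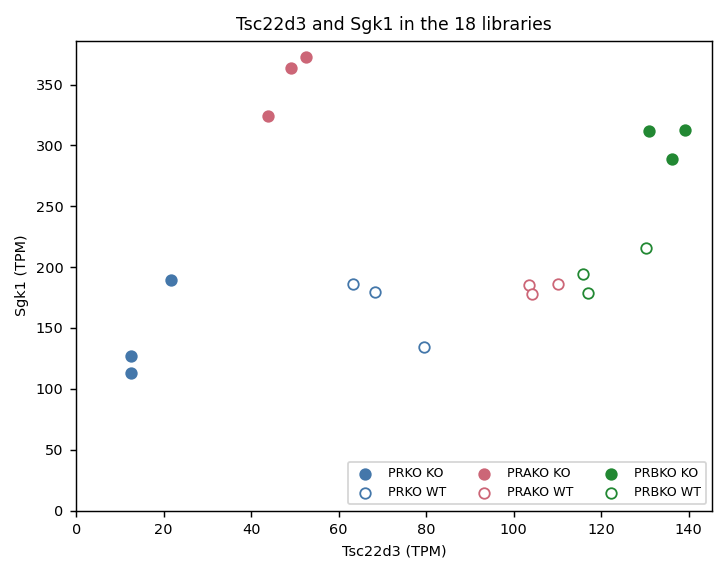
Sgk1 (vertical axis, TPM) against Tsc22d3 (horizontal axis, TPM) in each of the 18 libraries, KO filled and WT open. PRAKO KO libraries lie at 43.8 to 52.5 TPM of Tsc22d3 and 324 to 373 TPM of Sgk1, PRBKO KO at 131 to 139 and 289 to 312 TPM, and the 9 WT libraries between 135 and 215 TPM of Sgk1.

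A ratio of genes within a library is free of the scaling. Tsc22d3 over Sgk1 was 0.0992 to 0.115 in PRKO KO libraries against 0.340 to 0.591 in PRKO WT, 0.135 to 0.141 in PRAKO KO against 0.558 to 0.591 in PRAKO WT, and 0.420 to 0.472 in PRBKO KO against 0.596 to 0.654 in PRBKO WT. The ratio was lower in each KO library than in each WT library of its strain. Such a ratio shows unequal change and not which of the 2 genes changed.

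Fkbp5, the co-chaperone that is itself a glucocorticoid target, lies on chromosome 17, 28398753 to 28486149. It had 193, 209 and 208 TPM in PRAKO KO libraries against 142, 141 and 145 TPM in PRAKO WT. The log2 fold change was 0.51 ± 0.06 (SE, n = 3 each; limma adjusted p = 0.00112), under the fold limit, and 0.29 relative to the median gene. In PRBKO it had 183, 215 and 237 TPM in KO against 156, 160 and 179 TPM in WT, a difference of 0.35 ± 0.12 on the log2 scale (SE; limma adjusted p = 0.10), or 0.13 relative to the median gene. In both strains each KO library was above each WT library, as for 45% of all genes tested in PRAKO and 33.5% in PRBKO. With size factors and with protein-coding TPM the value was 0.28 and 0.30 in PRAKO (limma adjusted p = 0.0474 and 0.012), and 0.11 and 0.04 in PRBKO (adjusted p = 0.386 and 0.769).

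In PRKO the order was the opposite. Fkbp5 had 151, 133 and 129 TPM in PRKO KO against 154, 159 and 182 TPM in PRKO WT, with a log2 fold change of -0.26 ± 0.10 (SE, n = 3 each; limma adjusted p = 0.174), or -0.16 relative to the median gene. The groups did not overlap, by a small margin, and the test was not passed. Of all genes tested in PRKO, 25.6% had KO below WT. The KO effect in PRKO minus that in PRAKO was -0.77 ± 0.14 (SE; limma contrast, adjusted p = 0.00527), and in PRKO minus PRBKO -0.61 ± 0.14 (adjusted p = 0.0047). Both were past the p limit and under the fold limit, and neither kept the p limit after rescaling. With size factors and with protein-coding TPM, PRKO minus PRAKO was -0.43 and -0.46 (limma adjusted p = 0.0526 and 0.0173) and PRKO minus PRBKO was -0.27 and -0.19 (adjusted p = 0.127 and 0.211).

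Fkbp4, on chromosome 6 at 128430103 to 128438656, was above WT in the KO libraries of each strain. Of all genes tested, 6.37% in PRKO, 45% in PRAKO and 33.5% in PRBKO had KO above WT. PRKO KO had 133, 128 and 145 TPM against 106, 102 and 124 TPM in PRKO WT, and PRAKO KO had 103, 105 and 112 TPM against 80.1, 73.0 and 79.1 TPM in PRAKO WT. PRBKO KO had 103, 130 and 124 TPM against 88.8, 99.5 and 98.9 TPM in PRBKO WT. The log2 fold changes were 0.29 ± 0.10 (SE; limma adjusted p = 0.13) in PRKO, 0.46 ± 0.07 (adjusted p = 0.00294) in PRAKO and 0.31 ± 0.12 (adjusted p = 0.118) in PRBKO, all under the fold limit. Relative to the median gene they were 0.39, 0.24 and 0.09, so PRKO had the highest of the 3 on that scale and PRAKO as TPM. In PRBKO the sign turned, to -0.0026, after rescaling to protein-coding genes.

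The ratio of Fkbp5 to Fkbp4 within a library was 0.892 to 1.14 in PRKO KO, against 1.46 to 1.56 in PRKO WT, with no overlap. It was 1.86 to 1.99 in PRAKO KO against 1.77 to 1.93 in PRAKO WT, and 1.65 to 1.91 in PRBKO KO against 1.61 to 1.81 in PRBKO WT, with overlap in both. The balance of the 2 co-chaperones was thus lower in KO than in WT libraries of PRKO, and within the spread in the strains that lack 1 isoform. The difference of this ratio between strains was not tested.

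**Figure D3:**
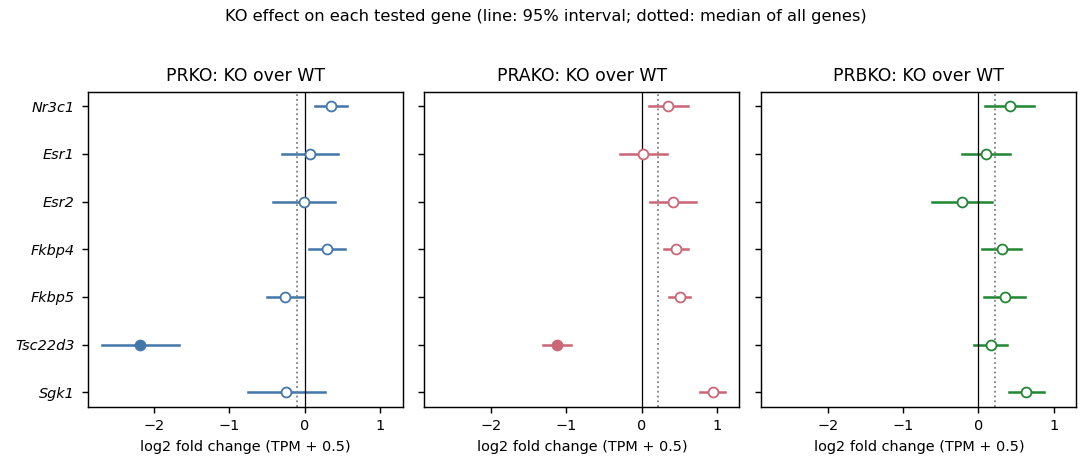
Log2 fold change of TPM + 0.5, KO over WT (horizontal axis), of the 7 tested genes in PRKO, PRAKO and PRBKO. Lines are 95% intervals of limma, filled points were called (Tsc22d3 at -2.18 in PRKO and -1.12 in PRAKO), and the dotted line is the median of all genes tested.

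The receptors were at low to moderate level in these cells and none was called. Nr3c1, the glucocorticoid receptor, had 8.84, 7.90 and 9.21 TPM in PRKO KO against 7.01, 6.77 and 6.16 TPM in PRKO WT. It had 4.94, 5.70 and 5.94 TPM in PRAKO KO against 3.94, 3.98 and 4.72 TPM in PRAKO WT, and 5.84, 7.78 and 7.87 TPM in PRBKO KO against 5.28, 5.38 and 4.95 TPM in PRBKO WT. Each KO library was above each WT library of its strain, as for 6.37%, 45% and 33.5% of all genes tested in PRKO, PRAKO and PRBKO. As TPM the log2 fold changes were alike at 0.36 ± 0.09 (SE; limma adjusted p = 0.0534), 0.36 ± 0.11 (adjusted p = 0.0443) and 0.42 ± 0.14 (adjusted p = 0.103), in the order PRKO, PRAKO and PRBKO. Relative to the median gene they were 0.45, 0.14 and 0.20, and so less alike. Over the alternatives other than omitting libraries in turn, their lowest values were 0.34, 0.15 and 0.13. The transcript NM_001361211 held 62.3% to 81.2% of Nr3c1.

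Esr2, the estrogen receptor of granulosa cells, was the most abundant receptor of the set, 5.14 to 14.0 times the level of Esr1 in a library. It had 18.9 to 24.4 TPM in PRKO KO against 16.2 to 25.1 TPM in PRKO WT, 36.0 to 48.7 TPM in PRAKO KO against 28.3 to 36.7 TPM in PRAKO WT, and 35.1 to 50.0 TPM in PRBKO KO against 41.9 to 62.9 TPM in PRBKO WT. The groups overlapped in each strain. The log2 fold changes were -0.01 ± 0.18 (SE; limma adjusted p = 0.989), 0.42 ± 0.13 (adjusted p = 0.0446) and -0.22 ± 0.18 (adjusted p = 0.393), in the order PRKO, PRAKO and PRBKO, and the first turned to 0.10 under both rescalings. Relative to the median gene they were 0.09, 0.20 and -0.44. Both coding transcripts of Esr2 were present, NM_207707 at 49.7% to 67.8% and NM_010157 at 29.8% to 46.8% of the gene.

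Esr1, the estrogen receptor more typical of theca and stroma, had 2.45 to 3.67 TPM in PRKO KO against 2.45 to 2.93 TPM in PRKO WT, 2.80 to 3.59 TPM in PRAKO KO against 2.73 to 3.61 TPM in PRAKO WT, and 3.93 to 4.92 TPM in PRBKO KO against 3.77 to 4.50 TPM in PRBKO WT. The groups overlapped, with log2 fold changes of 0.07 (95% interval -0.30 to 0.44), 0.02 (-0.29 to 0.33) and 0.10 (-0.22 to 0.42), or 0.17, -0.20 and -0.12 relative to the median gene. The signs in PRAKO and PRBKO turned under both rescalings, to -0.18 in PRAKO and to -0.11 and -0.19 in PRBKO. Smooth muscle and stroma markers summed to 101 to 119 TPM over 10 genes in PRKO KO against 107 to 132 TPM in PRKO WT.

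Nr3c2, the mineralocorticoid receptor, was under 1 TPM in each library, at 0.345 to 0.465 TPM in PRKO KO against 0.274 to 0.332 TPM in PRKO WT, 0.670 to 0.759 TPM in PRAKO KO against 0.305 to 0.535 TPM in PRAKO WT, and 0.546 to 0.887 TPM in PRBKO KO against 0.591 to 0.698 TPM in PRBKO WT. KO was above WT in PRKO and PRAKO, and the groups overlapped in PRBKO. It stayed below the filter in each strain. Without the filter the log2 fold changes were 0.18, 0.36 and 0.14, with limma adjusted p of 0.299, 0.0831 and 0.559.

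Hsd11b1, the enzyme that makes active glucocorticoid inside the cell, was also near the bottom of the range and below the filter. It had 0.181 to 0.348 TPM in PRKO KO against 0.465 to 1.54 TPM in PRKO WT, 0.163 to 0.359 TPM in PRAKO KO against 0.225 to 0.326 TPM in PRAKO WT, and 0.334 to 0.371 TPM in PRBKO KO against 0.0978 to 0.188 TPM in PRBKO WT. KO was below WT in PRKO and above it in PRBKO. The third PRKO WT library, at 1.54 TPM, was well above the other libraries of its group. Without the filter the log2 fold changes were -0.73, -0.10 and 0.41 (limma adjusted p = 0.249, 0.60 and 0.0869), and no difference between them was called. In replicate 1 of PRKO KO all of its 0.181 TPM was assigned to NM_008288, a transcript listed at 0 in every other library.

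Of the 9 genes, 7 were tested in each strain. In PRKO 1 of the 7 was called lower and none higher, in PRAKO 1 was called lower and none higher, and in PRBKO none was called by limma. At an unadjusted p under 0.05 there were 4 of the 7 in PRKO (24.8% of all genes), 6 in PRAKO (49.5%) and 4 in PRBKO (31.1%). With the adjusted p limit set to 0.05 and no fold limit, limma passed 1 of the 7 in PRKO against 9.96% of all genes, 6 in PRAKO against 34.5%, and 1 in PRBKO against 3.48%. KO and WT libraries did not overlap for 4 of the 7 in PRKO (31.9% of all genes), 5 in PRAKO (51.3%) and 5 in PRBKO (34.8%). In the same order of strains, KO was above WT for 6.37%, 45% and 33.5% of all genes and below it for 25.6%, 6.3% and 1.21%.

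Other known glucocorticoid target genes were called lower in PRKO and PRAKO beside Tsc22d3. Of a list of 40, 36 were tested in each strain, Tsc22d3, Sgk1 and Fkbp5 among them. Of the other 33, 8 were called lower and none higher in PRKO, where 1.82% of all genes were called lower and 0.316% higher. In PRAKO 5 of the 33 were lower and 1 was higher, against 1.21% and 0.841% of all genes, and in PRBKO none was lower and 2 were higher, against 0.0419% and 0.0907%. The 36 had a median of -0.48 in PRKO (-0.10 over all genes), -0.24 in PRAKO (0.22) and 0.34 in PRBKO (0.22). The list holds Zbtb16, Mt1 and Mt2, which are among the genes called lower in both PRKO and PRAKO. Their results in these samples were known when the list was drawn up, so its counts are not independent evidence of a direction.

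Zbtb16, a zinc finger transcription factor, averaged 2.18 ± 0.845 TPM in PRKO KO against 36.4 ± 1.42 TPM in PRKO WT, and 9.81 ± 0.323 TPM in PRAKO KO against 38.3 ± 3.46 TPM in PRAKO WT (SD, n = 3 each). Glul, glutamine synthetase, averaged 29.5 ± 2.11 TPM in PRKO KO against 146 ± 20.7 TPM in PRKO WT, and 81.5 ± 0.875 TPM in PRAKO KO against 199 ± 5.33 TPM in PRAKO WT. Klf15, a metabolic transcription factor, averaged 1.44 ± 0.283 TPM in PRKO KO against 8.04 ± 0.828 TPM in PRKO WT, and 3.10 ± 0.477 TPM in PRAKO KO against 6.95 ± 0.425 TPM in PRAKO WT. These 3 genes were called lower in both strains and in neither direction in PRBKO. Zbtb16 was still below WT there without overlap, at 32.8 ± 5.40 TPM in PRBKO KO against 44.3 ± 2.08 TPM in PRBKO WT. Its log2 fold change was -0.44 (limma adjusted p = 0.0791), or -0.66 relative to the median gene, and 1.21% of all genes had KO below WT in PRBKO. Glul and Klf15 had 0.33 and 0.30 in PRBKO, with groups that overlapped.

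The metallothioneins Mt1 and Mt2, which bind zinc, were also called lower in both, with log2 fold changes of -1.38 ± 0.10 and -2.23 ± 0.10 in PRKO and of -1.36 ± 0.08 and -2.71 ± 0.08 in PRAKO (SE), and how reads were shared between these paralogs was not examined. Per2, a clock gene, Ddit4, an inhibitor of mTOR, and Crispld2 were called lower in PRKO, at -1.46 ± 0.15, -1.35 ± 0.18 and -1.59 ± 0.15 (SE). In PRAKO they had -0.44 (limma adjusted p = 0.0989), -0.28 (adjusted p = 0.0585) and -0.85 (adjusted p = 8.19e-05), each under the fold limit. Rasd1, a small GTPase named for its induction by dexamethasone, was called higher in PRAKO, at 1.04 ± 0.12 (SE). Errfi1, an inhibitor of the EGF receptor, and Rhob, a small GTPase, were called higher in PRBKO, at 1.17 ± 0.11 and 1.05 ± 0.10. Relative to the median gene of the strain, Rasd1, Errfi1 and Rhob were at 0.82, 0.95 and 0.84, each under the fold limit.

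Below the fold limit, Foxo3 and Klf9, both transcription factors, had -0.76 ± 0.07 (limma adjusted p = 0.000755) and -0.998 ± 0.09 (adjusted p = 0.00107) in PRKO. In PRAKO they had -0.36 (limma adjusted p = 0.0241) and -0.43 (adjusted p = 0.0166). Not every textbook target was low in PRKO: Dusp1, a phosphatase, had 122 ± 58.1 TPM in PRKO KO against 124 ± 38.3 TPM in PRKO WT, and Txnip, a redox regulator, had 37.0 ± 2.43 TPM in PRKO KO against 37.8 ± 1.71 TPM in PRKO WT (SD, n = 3 each). Dusp1 and Txnip were chosen after their values were seen.

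**Figure D4:**
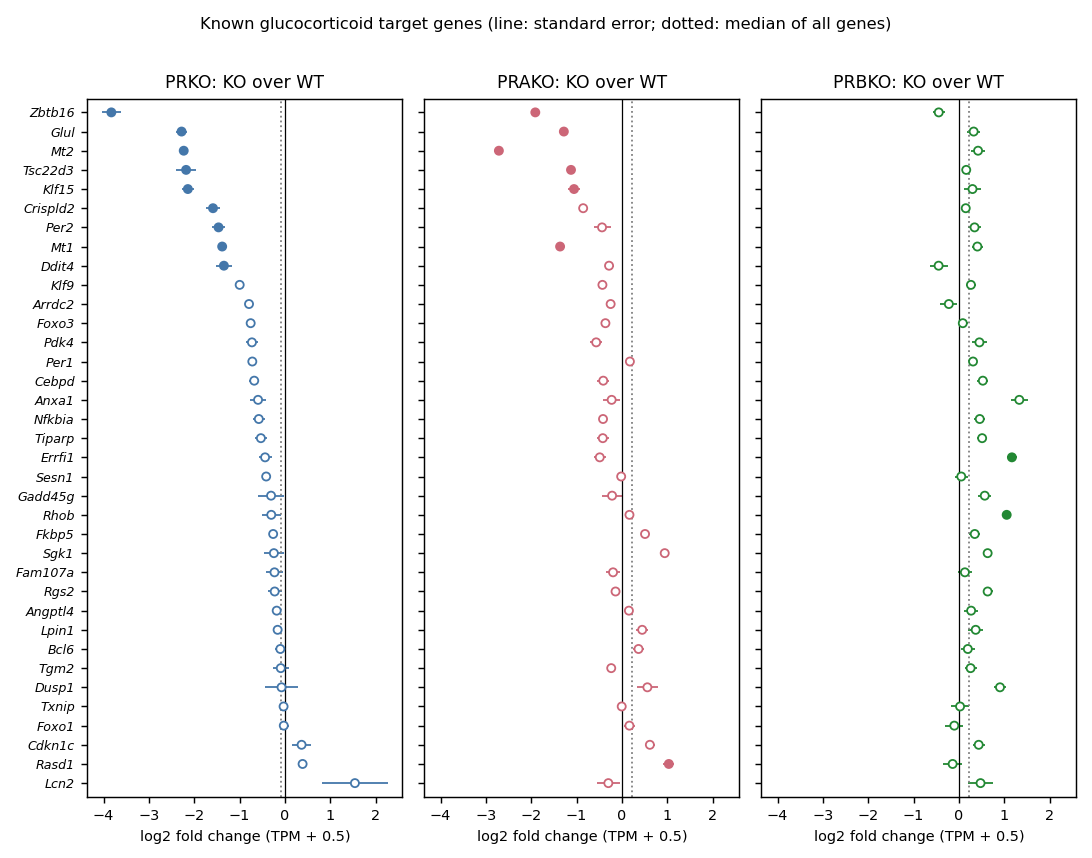
Log2 fold change of TPM + 0.5, KO over WT (horizontal axis), of the 36 tested glucocorticoid target genes, ordered by their value in PRKO, in the 3 strains. Lines are standard errors, filled points were called (9 in PRKO, 7 in PRAKO, 2 in PRBKO), and the dotted line is the median of all genes tested.

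Other genes of the same families and pathways are given next. By limma at an adjusted p of at most 0.05, 30% of all genes tested were higher in PRAKO KO and 3.27% in PRBKO KO. Of the chaperones and co-chaperones of steroid receptors, none of 22 tested was called in any strain by limma (3 in PRKO, 14 in PRAKO and 18 in PRBKO at an unadjusted p under 0.05, where all genes had 24.8%, 49.5% and 31.1% in the same order), with list medians of -0.07 in PRKO, 0.25 in PRAKO and 0.31 in PRBKO. At a limma adjusted p of at most 0.05 and no fold limit, Hsph1, a heat shock protein, had 0.46 in PRBKO (adjusted p = 0.0472), or 0.24 relative to the median gene. Other genes of the list also passed that limit, in PRAKO mostly higher. Bag1, a co-chaperone, was lower, at -0.55 in PRKO (adjusted p = 0.0361) and -0.31 in PRAKO (adjusted p = 0.0143). Bag1 was chosen after its values were seen. None of 14 tested FKBP genes was called by limma (4 in PRKO, 8 in PRAKO and 6 in PRBKO at an unadjusted p under 0.05, against the same shares of all genes), where Fkbp14 had -0.55 in PRKO (adjusted p = 0.0109) and Fkbp1a 0.42 in PRAKO (adjusted p = 0.00698). Relative to the median gene of the strain, Fkbp14 was at -0.45 and Fkbp1a at 0.20.

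Of the 4 TSC22 genes Tsc22d3 alone was called. Its paralogs Tsc22d1, Tsc22d2 and Tsc22d4 had -0.16, -0.09 and -0.44 in PRKO and 0.25, 0.17 and 0.06 in PRAKO, with limma adjusted p of 0.0323 for Tsc22d4 in PRKO and 0.0447 for Tsc22d1 in PRAKO. Relative to the median gene, Tsc22d4 was at -0.34 in PRKO and Tsc22d1 at 0.03 in PRAKO. Tsc22d1 was by far the most abundant of the 4, at 951 ± 34.3 TPM in PRKO KO against 1069 ± 142 TPM in PRKO WT. Of the SGK kinases, their activators and substrates none was called by limma among 13 tested in PRKO or 14 in PRAKO and PRBKO (3 in PRKO, 8 in PRAKO and 6 in PRBKO at an unadjusted p under 0.05, against 24.8%, 49.5% and 31.1% of all genes). Ndrg1, a substrate of SGK1, had 0.94 in PRBKO (adjusted p = 0.00714), or 0.72 relative to the median gene. Mapkap1, a subunit of mTOR complex 2, had 0.25 in PRAKO (adjusted p = 0.0395), or 0.03 relative to the median gene.

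Of the enzymes and transporters of glucocorticoid and progestin metabolism, none of 10 tested was called by limma (3 in PRKO, 7 in PRAKO and 3 in PRBKO at an unadjusted p under 0.05, against 24.8%, 49.5% and 31.1% of all genes). H6pd, which supplies the cofactor that the Hsd11b1 enzyme needs, averaged 15.8 ± 1.80 TPM in PRKO KO against 25.7 ± 0.762 TPM in PRKO WT (SD, n = 3 each), a log2 fold change of -0.69 ± 0.09 (SE; limma adjusted p = 0.00504). In PRAKO it had -0.29 (limma adjusted p = 0.0256). Hsd11b2, the opposing enzyme that inactivates glucocorticoid, stood far above Hsd11b1, with 13.2 to 25.3 TPM as group means, and was not called, at 0.04 in PRKO, 0.31 in PRAKO and -0.34 in PRBKO. Srd5a1, which reduces progesterone and testosterone, had 0.68 in PRAKO (limma adjusted p = 0.00256), Cyp11b1 0.64 (adjusted p = 0.0218) and the transporter Abcc1 0.49 (adjusted p = 0.00801). Relative to the median gene these values were 0.46, 0.43 and 0.27. Hsd11b2 was chosen after its values were seen.

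Of the steroid receptors and their relatives, 6 of 10 were tested and Pgr alone was called, higher in PRAKO at 2.94 ± 0.16 (SE; limma adjusted p = 2.21e-05). Esrra, an orphan receptor related to the estrogen receptors, had 0.41 in PRAKO (adjusted p = 0.0253), or 0.19 relative to the median gene. Of the estrogen target genes 16 were tested in PRKO and 14 in the other strains, and Pgr and Rasd1 in PRAKO were called, both higher. In PRAKO 0.841% of all genes tested were called higher and 1.21% lower. Pgr is the targeted gene itself, and Rasd1 was at 0.82 relative to the median gene, under the fold limit. Nrip1, a receptor corepressor, had 0.62 in PRKO (adjusted p = 0.00481) and 0.54 in PRAKO (adjusted p = 0.00731), Igfbp4 had 0.37 in PRAKO (adjusted p = 0.00777), Runx2 had -0.61 in PRKO (adjusted p = 0.0202), and Fos had 0.98 in PRBKO (adjusted p = 0.00717). Relative to the median gene, Nrip1 was at 0.72 in PRKO and 0.32 in PRAKO, Igfbp4 at 0.15, Runx2 at -0.51 and Fos at 0.76.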

How the data were processed

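RNA of granulosa cells was sequenced as paired ends from depleted total RNA, with 3 libraries per group and 3 mice per library. The deposited values were TPM per transcript, 1 table per strain. The authors made them with Salmon on mouse build GRCm38.p6, after FastQC, and the submitters' notes also name edgeR and limma, and no versions are given in the sources used here. The tables list RefSeq transcripts. Per the study's methods the transcriptome was of GENCODE, and the reason for the difference was not stated.

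With the RefSeq gene table of the same assembly, 42072 of 42251 transcripts were assigned to a gene and summed. Unmatched transcripts held 0.963% to 1.61% of TPM in a library. Each strain was fitted alone with limma 3.58.1 (R 4.3.3) on log2(TPM + 0.5), with no covariate, a prior that followed the mean, two-sided tests and Benjamini-Hochberg adjustment. The study's voom weights need counts and could not be used with TPM. Differences of KO effects were contrasts in 1 fit of the 18 libraries. Sequences came from RefSeq promoter tables and transcript starts from GENCODE. Tables and figures were made with Python 3.11.15, pandas 2.3.3 and matplotlib 3.10.9, and the fits were tested on simulated data.

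The lowest correlation between libraries of a group was 0.984, and no pair held identical values. Whether pools came from separate litters or days is not stated, so p-values measure the spread between these pools.

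The 9 genes and 16 lists (8 of pathways, 8 of cell type markers) were chosen with earlier results of these data known. Genes named are the 9, Pgr, each gene of a pathway list called in any strain with up to 4 more by smallest p, and the 5 genes most like each called gene. Exceptions are marked, and 3 genes that this rule names are not reported here. Tried as alternatives were pseudocounts of 1 and 0.1, dropping the filter or raising it to a mean of 5 TPM, both rescalings, a constant prior, fitting the 18 libraries at once, blocking on replicate number, calling at an adjusted p of 0.05 whatever the fold, and omitting libraries in turn.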

Additional observations from a re-analysis of the deposited data

Results flagged for a closer look

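The KO effects of 2 genes differed between strains by the test of the difference itself (limma contrasts over 18 libraries). The KO effect on Tsc22d3 in PRKO minus that in PRBKO was -2.3424 on the log2 scale (adjusted p = 2.55e-06), with 3 of 3 PRKO KO libraries below WT. In PRAKO minus PRBKO it was -1.2851 (adjusted p = 0.00146), with 3 of 3 PRAKO KO libraries below WT. The 3 PRBKO KO libraries were above WT by a small margin, with 130.9 TPM in the lowest against 130.3 TPM in the highest WT library. Of all genes tested, 25.6% in PRKO and 6.3% in PRAKO had KO below WT, and 6.37% and 45% had KO above WT. In PRBKO 33.5% of all genes tested had KO above WT. The Tsc22d3 fold change there was -0.06 relative to the median gene and negative under both rescalings. The KO effect on Sgk1 in PRKO minus that in PRAKO was -1.1884 (adjusted p = 0.00695), with 3 of 3 PRAKO KO libraries above WT and overlapping groups in PRKO. That last call was lost with no filter (adjusted p = 0.0126), with a constant prior (0.0103), under both rescalings (-0.8527 and -0.8745) and when any 1 of 10 of the 18 libraries was left out. Groups of 3 libraries were not tested for outlying samples.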

How the results depend on the processing

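TPM keeps no depth, 3 libraries per group limit each test, and no count test could be run. The calls of Tsc22d3 in PRKO and PRAKO, and of its PRKO minus PRBKO difference, held under each alternative run, leaving out any 1 library included. The number of genes of the set called was 1 in PRKO under each, and at an adjusted p of 0.05 with no fold limit it was 6 in PRAKO, 1 in PRBKO, and 3 for PRKO minus PRAKO and for PRKO minus PRBKO. For PRKO minus PRAKO it was 0 with no filter, median-of-ratios size factors, TPM rescaled to protein-coding genes, a constant prior or the replicate block, and 2 with a mean of at least 5 TPM. For PRAKO minus PRBKO it was 0 with the replicate block. Leaving out 1 library gave 1 to 2 genes in PRAKO, 0 to 2 for PRKO minus PRAKO and 1 to 2 for PRKO minus PRBKO. Signs turned with size factors for Esr2 in PRKO (0.101), Esr1 in PRAKO (-0.1786) and PRBKO (-0.1092), Tsc22d3 in PRBKO (-0.0736), and Fkbp4 for PRKO minus PRAKO (0.1702) and PRKO minus PRBKO (0.3215). With protein-coding TPM the same values were 0.0957, -0.1773, -0.1884, -0.1512, 0.1495 and 0.3983, and Fkbp4 in PRBKO was -0.0026. With 1 library left out, Esr1 ranged over -0.0847 to 0.1665 in PRKO and -0.067 to 0.1058 in PRAKO, Esr2 over -0.1881 to 0.1208 in PRKO, and Fkbp4 over -0.1179 to 0.0684 for PRKO minus PRBKO. Both rescalings were built to take out a shift shared by all genes, which lowered the median of PRAKO to 0.00 and 0.01 and that of PRBKO to 0.00 and -0.08, and the cause of the other changes was not tested. Same-numbered KO and WT libraries deviated together with r from -0.124 to 0.189, the first PRKO KO library was nearer another number (r = 0.222), and the labels tie no number to a day or litter, so no pairing was assumed. The replicate block gave Esr1 in PRAKO -0.1385 and Tsc22d3 for PRAKO minus PRBKO -1.3184 (adjusted p = 0.105), and called 258, 396 and 242 genes in PRKO, PRAKO and PRBKO, against 297, 285 and 19 without it. Genes called in PRBKO ranged from 4 to 63 with 1 library left out, lowest without replicate 1 of PRBKO KO, and only leaving out replicate 2 of PRBKO KO moved them by under 1.5 times. They were 4 with no filter, 34 with a mean of at least 5 TPM and 38 in the fit of all 18 libraries, and in PRAKO 184 with that mean. At an adjusted p of 0.05 with no fold limit 1385, 4797 and 498 genes were called in PRKO, PRAKO and PRBKO, and 2061, 897 and 4099 for PRKO minus PRAKO, PRAKO minus PRBKO and PRKO minus PRBKO. For PRKO minus PRAKO 76 genes were called, 92.1% of them negative, against 41 under either rescaling (63.4% and 58.5%), 0 with the block and 39 to 135 with 1 library left out. For PRKO minus PRBKO 559 were called (96.4% negative), against 312 and 333 under the rescalings (85.3% and 76.6%) and 363 with the block, and for PRAKO minus PRBKO 299, against 76 with the block.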

Other observations

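Erythroid markers, 6 genes, summed to 185 to 321 TPM in PRKO KO libraries against 55.0 to 135 TPM in PRKO WT, and to 223 to 360 TPM in PRBKO KO against 75.3 to 207 TPM in PRBKO WT. Oocyte markers, 8 genes, summed to 170 to 204 TPM in PRKO KO against 220 to 289 TPM in PRKO WT. Theca markers summed to 43.7 to 80.9 TPM in PRKO KO against 56.2 to 75.8 TPM in PRKO WT. Markers of the surface epithelium, 7 genes, summed to 73.5 to 109 TPM in PRBKO KO against 56.8 to 73.9 TPM in PRBKO WT. Among the cell type marker lists, limma called Fshr, a granulosa cell receptor, lower in PRKO, the endothelial Cdh5 and the theca marker Hhip lower in PRAKO, and the granulosa cell genes Cyp11a1 and Lhcgr higher in PRAKO, and no marker in PRBKO, where 5 of 6 tested erythroid and 5 of 7 surface epithelium markers had an unadjusted p under 0.05. Fshr had -0.83 in PRAKO (limma adjusted p = 0.00353), under the fold limit, or -1.05 relative to the median gene. On that relative scale Cyp11a1 was at 1.05 in PRAKO and Lhcgr at 0.89, under the fold limit.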
